A study of Oryctolagus cuniculus with 9 samples.

Results

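Antigen processing and presentation was followed through 104 genes of a rabbit vocal fold transcriptome. They are the rows of a table of 20525 genes whose KEGG terms include that pathway but neither the lysosome nor protein processing in the endoplasmic reticulum, with CD4, CD8A and TNF left out. The pathway has 131 rows in the table, and the other 27 fall outside this choice. The 104 genes comprise 14 MHC class II chains, the class II invariant chain CD74, 8 regulators of class II transcription, 11 MHC class I heavy chains, 1 row in the class I region whose description names no class I protein, beta-2-microglobulin (B2M), 4 genes of peptide transport and loading, 3 proteasome activator subunits, 3 class I-like proteins, 7 lectin-like receptors of natural killer (NK) cells, CD8B, IFNG, HSPA4, 46 T cell receptor segments and 2 subunits of the ER membrane protein complex, EMC8 and EMC9, which the annotation files under the entry of the proteasome activator PSME2.

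Polyadenylated RNA of vocal fold was sequenced in 9 libraries of Oryctolagus cuniculus. There were 3 libraries of normal folds without injury, 3 of injured folds left without treatment and 3 of injured folds given SOT, a hydrogel that the title of the study calls antioxidant and adhesive. Injured folds were taken 1 week after injury. Strain, age, the composition of SOT and a hydrogel-free vehicle group are not given in the labels used here, and nothing in them ties a replicate to an animal of its own. The p-values therefore describe the spread between these libraries, which may be technical. One label names the cells as vocal cord histiocytes, a term for tissue macrophages, while the tissue label reads vocal fold.

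MHC class II molecules are pairs of an alpha and a beta chain that display peptides from engulfed protein to CD4 T cells. Professional antigen-presenting cells, such as dendritic cells, macrophages and B cells, make them under the control of the transactivator CIITA, and CD74 guards the groove until the DM pair loads a peptide. MHC class I heavy chains pair with B2M on nearly every nucleated cell and display peptides that the proteasome cuts, the TAP transporter carries and tapasin loads.

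Total counts were between 44755718 and 50338111 per library, and a floor of 3 counts corresponds to between 0.0557 and 0.0692 CPM, the count scaled to library size with TMM factors in edgeR, which is the level used for each gene across libraries. The libraries held whole tissue rather than macrophages alone: summed keratin and cadherin markers of epithelium lay between 5666 and 14307 CPM. Summed muscle markers differed by group. They lay between 10657 and 13131 CPM in normal, 462 and 4175 CPM in untreated and 1141 and 5058 CPM in SOT folds. SOT replicate 3 stood apart in T cell transcripts, with summed T and NK cell markers of 143 CPM against 22.7 to 39.4 CPM in the other libraries, and values that turn on it are given without it too. Of the 104 genes, 61 passed the filter on low counts and were tested, and 43 did not (42 T cell receptor segments and 1 NK receptor row). A gene is said to have risen or fallen where edgeR's quasi-likelihood test gave a Benjamini-Hochberg adjusted p under 0.05 over the 17344 genes tested.

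In untreated injured folds the antigen presentation genes were mostly higher than in normal folds, and the class II chains had the highest median fold change of the larger groups. Of the 61 tested members 27 rose, where 17.7% of all tested genes rose, and 2 fell, where 15.1% of all tested genes fell. Called in either direction were 32.8% of all tested genes. DESeq2, fitted to all 104 members with no filter on low counts, called 34 of them, 31 higher and 3 lower. It called 36.5% of the genes to which it gave an adjusted p, 18.1% higher and 18.4% lower. The median log2 fold change of the 61 was 0.96, against -0.02 over all tested genes. The count of members that rose was 16 without normal replicate 1, without untreated replicate 2 or without untreated replicate 3, and 17 of the 29 calls held in all 9 fits that left out 1 library.

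**Figure D1:**
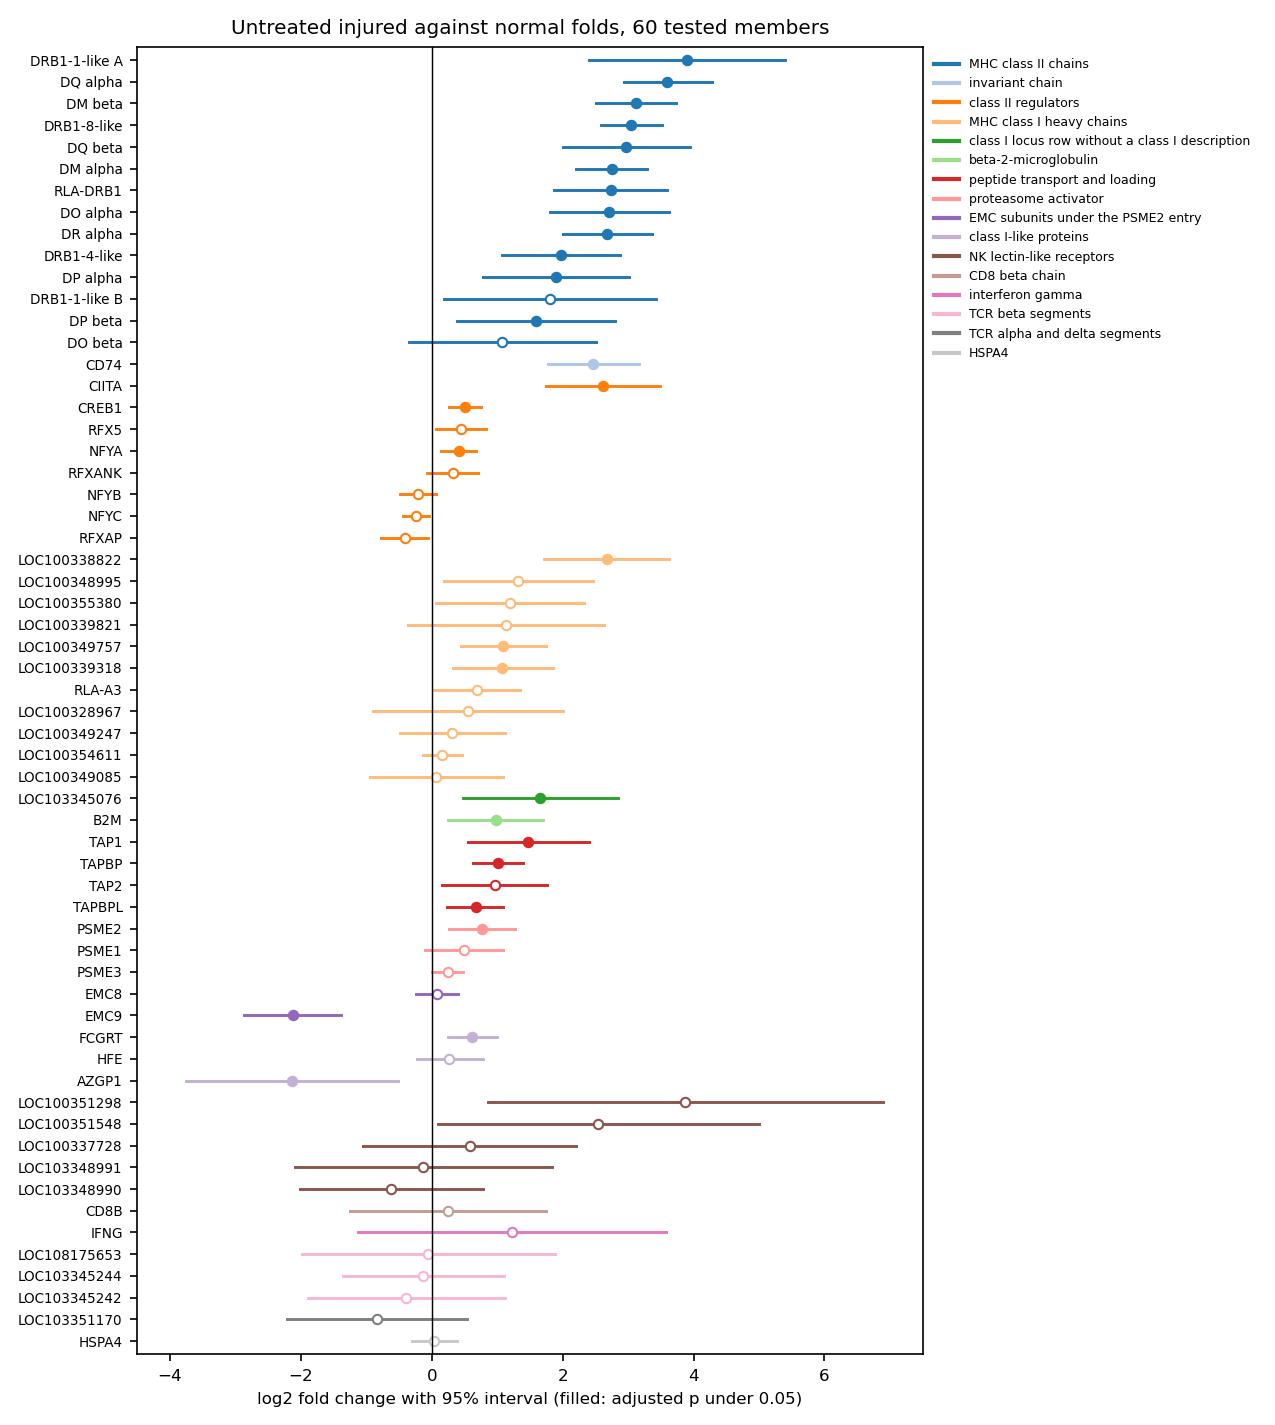
Log2 fold change (x axis) of untreated injured against normal folds for 60 of the 61 tested members (y axis), grouped by role, with 95% intervals from edgeR and filled points where the adjusted p was under 0.05. The class II chains at the top lie between 1.08 and 3.90, the class I heavy chains between 0.07 and 2.68, and EMC9 and AZGP1 are the filled points below 0. The NK receptor row LOC103345395 is not drawn, because it had no counts in normal folds.

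Of the 14 class II chains 12 rose, none fell and all 14 had a log2 fold change above 0, with a median of 2.73. Among all tested genes 17.7% rose, 15.1% fell and 48.3% lay above 0. RLA-DR-ALPHA, the alpha chain of the DR molecule, lies on chromosome 12 at 23070319 to 23074942 of the build OryCun2.0. It stood at 230, 347 and 306 CPM in normal replicates 1, 2 and 3, at 1325, 2378 and 1968 CPM in the untreated replicates and at 666, 728 and 1098 CPM in the SOT replicates. All 3 groups were separate, with normal folds lowest and untreated folds highest. For this and other members described as separate, how many of all genes were likewise separate was not counted. Untreated folds were 6.42-fold above normal folds (log2 fold change 2.68, SE 0.30, adjusted p = 0.00085). More or fewer cells of a type and more or less RNA per cell cannot be told apart in such tissue libraries.

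RLA-DRB1, a DR beta chain that pairs with that alpha chain, stood at 141, 216 and 184 CPM in normal folds, 660, 1685 and 1263 CPM in untreated folds and 384, 539 and 710 CPM in SOT folds. It rose 6.67-fold in untreated folds (with a log2 fold change of 2.74, SE 0.38, adjusted p = 0.00185), with the lowest untreated library below the highest SOT library. The alpha chain of the DQ molecule, LOC100343144 on chromosome 12 at 23254385 to 23259460, stood at 65.2, 118 and 106 CPM in normal folds, 834, 1458 and 1224 CPM in untreated folds and 312, 299 and 375 CPM in SOT folds. No 2 groups of DQ alpha overlapped, and its rise of 12.2-fold (log2 fold change 3.60, SE 0.30, adjusted p = 0.000311) was the second largest among the class II chains. Its partner DQ beta, LOC100351163, stood at 114, 172 and 156 CPM in normal folds, 558, 1670 and 1251 CPM in untreated folds and 306, 399 and 582 CPM in SOT folds. DQ beta rose 7.86-fold (log2 fold change 2.97, SE 0.42, adjusted p = 0.00208), and untreated replicate 1 lay below SOT replicate 3.

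The DM pair exchanges the last fragment of CD74 for a peptide. Its alpha chain RLA-DMA stood at 19.0, 27.0 and 21.6 CPM in normal folds, 120, 172 and 162 CPM in untreated folds and 59.9, 55.3 and 89.4 CPM in SOT folds. Its beta chain RLA-DMB stood at 15.8, 24.5 and 22.2 CPM in normal folds, 147, 211 and 185 CPM in untreated folds and 72.6, 53.8 and 96.1 CPM in SOT folds. Both chains were separate in all 3 groups. RLA-DMA rose 6.71-fold (log2 fold change 2.75, SE 0.24, adjusted p = 0.000379) and RLA-DMB 8.68-fold (log2 fold change 3.12, SE 0.27, adjusted p = 0.000357) in untreated folds. DO alpha, LOC100352672, a chain of the DO pair that restrains DM, stood at 3.46, 5.54 and 5.66 CPM in normal folds, 22.3, 41.4 and 32.5 CPM in untreated folds and 10.9, 9.87 and 22.9 CPM in SOT folds. It rose 6.56-fold (log2 fold change 2.71, SE 0.40, adjusted p = 0.00226), and SOT replicate 3 lay among the untreated values. DO beta, LOC100351416, did not pass (log2 fold change 1.08, SE 0.63, adjusted p = 0.217). Its SOT libraries ran from 3.64 to 21 CPM, and without SOT replicate 3, which held the highest value, it rose with an adjusted p of 0.00338.

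Of the other class II rows, 4 are further DR beta rows. DRB1-8-like, LOC100348904, stood at 2.44, 3.01 and 2.99 CPM in normal folds, 20.3, 25.1 and 24.7 CPM in untreated folds and 12.3, 7.93 and 10.3 CPM in SOT folds, with no overlap between groups. It rose 8.29-fold with the narrowest error of the class II chains (log2 fold change 3.05, SE 0.21, adjusted p = 0.000211). A DRB1-1-like row, LOC100349408, had the largest fold of the class II chains, 14.9 (log2 fold change 3.90, SE 0.65, adjusted p = 0.0036), from 2.56, 4.57 and 3.36 CPM in normal folds to 70.5, 28.6 and 57.3 CPM in untreated folds and 44.8, 8.95 and 14.5 CPM in SOT folds. This row took 9.12% of all DR beta CPM in untreated replicate 1 and 9.85% in SOT replicate 1, 4.17% in untreated replicate 3 and 1.58% to 1.94% in the other 6 libraries, so its share varied within groups. DRB1-4-like, LOC100350168, stood at 4.33, 10.9 and 5.61 CPM in normal folds, 20.2, 35.8 and 26.0 CPM in untreated folds and 11.6, 10.2 and 18.2 CPM in SOT folds, and rose 3.93-fold (adjusted p = 0.00732). How reads shared by these near-identical DR beta rows were assigned is not given in the sources used here, so their separate values are uncertain. With the DR beta rows summed, the log2 fold change was 2.75 (SE 0.34) in untreated against normal folds.

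The DP pair had the smallest fold changes among the class II chains that rose. DP alpha, LOC100352927, stood at 4.29, 9.04 and 5.18 CPM in normal folds, 13.2, 29.9 and 26.0 CPM in untreated folds and 7.38, 9.93 and 21.2 CPM in SOT folds (log2 fold change 1.9 in untreated against normal folds, SE 0.49, adjusted p = 0.0192). DP beta, LOC100341358, stood at 4.52, 6.82 and 5.13 CPM in normal folds, 10.3, 21.6 and 17.9 CPM in untreated folds and 5.01, 8.21 and 22 CPM in SOT folds (log2 fold change 1.59, SE 0.53, adjusted p = 0.048). In both chains SOT replicate 3 was above the other SOT libraries and at untreated levels. The call of DP alpha was lost without normal replicate 1 or 3 or untreated replicate 2 or 3 (adjusted p up to 0.0686), and that of DP beta without SOT replicate 2, any normal replicate or untreated replicate 2 or 3 (up to 0.142). The call of DP beta was also lost with RLE size factors, with upper-quartile scaling, with no filter on low counts and by limma. The last row, a second DRB1-1-like copy (LOC100349667), did not pass (log2 fold change 1.80, adjusted p = 0.0834).

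**Figure D2:**
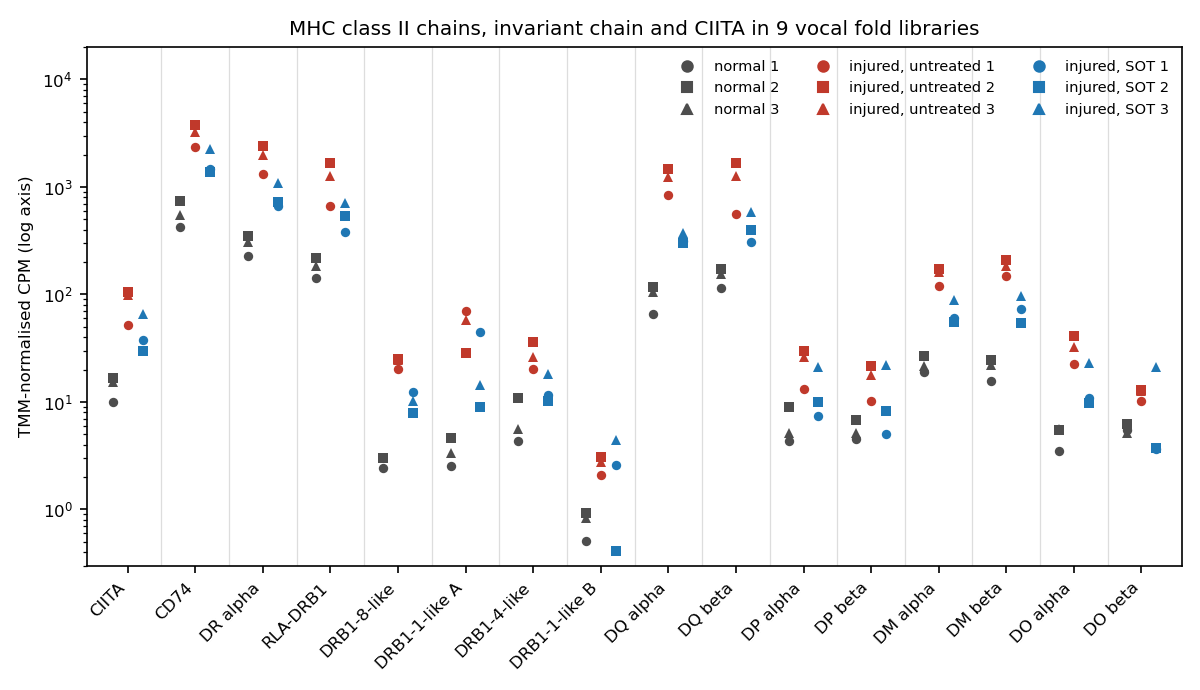
TMM-normalised CPM (y axis, log scale) of CIITA, CD74 and the 14 class II chains (x axis) in each of the 9 libraries, coloured by group, with symbols for the replicate number. Normal folds are lowest and untreated folds highest for the abundant chains, for example RLA-DR-ALPHA at 230 to 347, 1325 to 2378 and 666 to 1098 CPM in normal, untreated and SOT folds, and SOT replicate 3 stands above the other SOT libraries in the DP and DO chains.

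CD74, the invariant chain, on chromosome 3, stood at 428, 738 and 542 CPM in normal folds, 2364, 3791 and 3272 CPM in untreated folds and 1461, 1380 and 2261 CPM in SOT folds. It rose 5.52-fold in untreated folds (with a log2 fold change of 2.47, SE 0.30, adjusted p = 0.00119), and the 3 groups did not overlap. CIITA, the transactivator, on chromosome 6, stood at 9.89, 16.6 and 15.4 CPM in normal folds, 52.4, 105 and 99.0 CPM in untreated folds and 37.5, 30.0 and 65.1 CPM in SOT folds. It rose 6.12-fold (log2 fold change 2.61, SE 0.38, adjusted p = 0.00226), and SOT replicate 3 lay above untreated replicate 1. CD74 and CIITA passed in each of the 9 fits without 1 library (adjusted p up to 0.00749 and 0.0119).

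The promoter-binding partners of CIITA had log2 fold changes between -0.41 and 0.51. Of the 8 regulators 3 rose and none fell: CIITA and, chosen for mention after their values were seen, NFYA (log2 fold change 0.41, SE 0.12, adjusted p = 0.0299) and CREB1 (log2 fold change 0.51, SE 0.11, adjusted p = 0.00851). Among all tested genes 17.7% rose and 15.1% fell. NFYA lost its call without any 1 of the normal or untreated replicates (adjusted p up to 0.0989), and by limma and with upper-quartile scaling. RFX5, a subunit of the RFX complex on the class II promoter, stood at 25.3, 30.8 and 24 CPM in normal folds, 35.2, 36.9 and 36.9 CPM in untreated folds and 32.3, 40.6 and 49.7 CPM in SOT folds, and did not pass in untreated folds (with a log2 fold change of 0.45, adjusted p = 0.0721). NFYB, a subunit of the CCAAT-binding factor NF-Y, stood at 26.9, 24.6 and 27.5 CPM in normal folds, 20.7, 24 and 23.7 CPM in untreated folds and 21.7, 26.6 and 26.5 CPM in SOT folds (log2 fold change -0.21, adjusted p = 0.226). The NFYB row overlaps HCFC2 on the other strand by 15615 bases, and the strandedness of the counts is not given in the sources used here. NFYC, RFXANK and RFXAP lay between -0.41 and 0.32 on the log2 scale, and none of them passed.

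Macrophage, general leukocyte and some dendritic cell markers moved with the class II chains, while B, plasma, T and NK cell markers mostly did not. In untreated against normal folds 9 of 10 macrophage and monocyte markers, all 6 markers of leukocytes in general and 6 of 12 tested dendritic cell markers rose, while 1 dendritic cell marker fell. Of all tested genes 17.7% rose and 15.1% fell. B and plasma cell markers had a median log2 fold change of -0.85, with 7 of 9 below 0. T and NK cell markers had a median of -0.33, with 9 of 11 below 0. The summed macrophage markers lay between 396 and 562 CPM in normal folds, 1927 and 2124 CPM in untreated folds and 807 and 1378 CPM in SOT folds. Summed leukocyte markers lay between 256 and 303, 1791 and 2595, and 768 and 1539 CPM, and summed dendritic cell markers between 196 and 305, 425 and 527, and 329 and 366 CPM, in the same order. None of the macrophage or general leukocyte markers was at 0 in a library, and of the dendritic cell markers BATF3 was listed at 0 in normal replicate 1, untreated replicates 1 and 2 and SOT replicate 1. The single fall among dendritic cell markers was lost without normal replicate 1 or 2 or untreated replicate 1 or 3. The part of cell composition in the class II result was not tested.

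Class II levels per unit of a leukocyte or macrophage transcript were compared on the deposited FPKM, which divides by gene length. RLA-DR-ALPHA per PTPRC, the pan-leukocyte gene for CD45, was 29.0, 36.4 and 33.7 in normal folds, 26.5, 30.5 and 28.5 in untreated folds and 15.8, 42.1 and 34.9 in SOT folds. Untreated and normal folds overlapped in this ratio (two-sided exact permutation test, p = 0.2, where 0.1 is the smallest p that 3 against 3 libraries allow). CD74 per PTPRC was 52.4 ± 10.0 in normal and 39.3 ± 0.575 in untreated folds (SD, n = 3, exact permutation p = 0.1). Per CD68, a macrophage glycoprotein, RLA-DR-ALPHA was 9.66 ± 1.85 in normal, 8.01 ± 2.08 in untreated and 6.70 ± 2.44 in SOT folds (SD, n = 3, exact permutation p = 0.4 for untreated against normal and 0.4 for SOT against untreated). None of these ratios was higher in untreated than in normal folds on average, and the exact test cannot reach 0.05 at this sample size.

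The class I heavy chains had smaller fold changes than the class II chains, a difference that was not tested. Of the 11 class I heavy chain rows 3 rose and none fell in untreated folds, with a median log2 fold change of 1.08. The shares over all tested genes were 17.7% that rose and 15.1% that fell. LOC100338822, on chromosome 12 at 20208160 to 20211776, stood at 9.84, 14.1 and 12.2 CPM in normal folds, 46.1, 105 and 80.0 CPM in untreated folds and 38.7, 13.9 and 28.2 CPM in SOT folds. It rose 6.40-fold in untreated folds (with a log2 fold change of 2.68, SE 0.42, adjusted p = 0.00285), a fold like those of the class II chains, from a low level. LOC100349757, at 22570422 to 22576137 of the same chromosome, stood at 83.3, 102 and 76.9 CPM in normal folds, 182, 196 and 180 CPM in untreated folds and 153, 62.1 and 108 CPM in SOT folds (log2 fold change 1.09, SE 0.28, adjusted p = 0.0205). LOC100339318, at 20299229 to 20303888, stood at 91.4, 103 and 76.6 CPM in normal folds, 177, 199 and 199 CPM in untreated folds and 153, 66.8 and 196 CPM in SOT folds (log2 fold change 1.08, SE 0.33, adjusted p = 0.0376). In both rows SOT replicate 2 lay below every normal library. The other 8 class I rows did not pass, with RLA-A3 at 0.69 (adjusted p = 0.0948) and LOC100349085 at 0.07 on the log2 scale. LOC100349757 lost its call without normal replicate 1 or 3 or untreated replicate 2 or 3 (adjusted p up to 0.0669) and LOC100339318 without any 1 of the normal or untreated replicates (up to 0.103). The number of class I rows that rose was 1 without normal replicate 1 or 3 or untreated replicate 2 or 3, and 5 without SOT replicate 3.

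A further row in the class I region, LOC103345076, carries the description of a hypothetical protein and is listed as a long non-coding RNA by RefSeq. It stood at 2.72, 3.91 and 2.86 CPM in normal folds, 8.26, 10.1 and 11.5 CPM in untreated folds and 5.60, 4.86 and 19.9 CPM in SOT folds. It rose 3.14-fold in untreated folds (adjusted p = 0.0401), a call that was lost without any 1 of the normal or untreated replicates (adjusted p up to 0.115). B2M, the light chain of every class I molecule, on chromosome 17, stood at 1055, 1111 and 799 CPM in normal folds, 1703, 2132 and 1995 CPM in untreated folds and 1617, 993 and 2542 CPM in SOT folds. It rose 1.97-fold (log2 fold change 0.98, SE 0.32, adjusted p = 0.0454), with SOT replicate 2 at a normal level and SOT replicate 3 above all untreated libraries. The B2M call was lost without SOT replicate 1 or any 1 of the normal or untreated replicates (adjusted p up to 0.124), and with upper-quartile scaling and by limma.

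Peptide transport and loading rose in 3 of 4 genes, where 17.7% of all tested genes rose. TAP1, a subunit of the transporter that carries peptides into the endoplasmic reticulum, stood at 114, 126 and 118 CPM in normal folds, 277, 374 and 340 CPM in untreated folds and 245, 119 and 456 CPM in SOT folds. It rose 2.77-fold in untreated folds (with a log2 fold change of 1.47, SE 0.40, adjusted p = 0.0249), and the SOT libraries spanned the range from the normal level to above the untreated level. TAP2, the other subunit, stood at 70.5, 84.8 and 89.8 CPM in normal folds, 141, 172 and 164 CPM in untreated folds and 154, 112 and 331 CPM in SOT folds, and did not pass in untreated folds (with a log2 fold change of 0.96, SE 0.35, adjusted p = 0.0673). Without SOT replicate 3, which was the highest, the TAP2 adjusted p was 0.0042. TAPBP, which encodes tapasin, stood at 71.7, 85.2 and 82.0 CPM in normal folds, 142, 169 and 171 CPM in untreated folds and 138, 112 and 172 CPM in SOT folds. It rose 2.01-fold (log2 fold change 1.01, SE 0.17, adjusted p = 0.00334) with no overlap between normal folds and either injured group, and its call held in all 9 fits without 1 library. TAPBPL, a tapasin-related peptide editor named after its values were seen, rose by 0.67 on the log2 scale (adjusted p = 0.0269). The number of genes that rose was 1 without normal replicate 1 or 2 or untreated replicate 2 or 3, where TAP1 and TAPBPL lost their calls (adjusted p up to 0.0767 and 0.0877).

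The proteasome activator subunits PSME1 and PSME2 form a cap that is induced by interferon gamma, and PSME3 forms a separate nuclear cap. PSME2 stood at 58.9, 62.0 and 72.5 CPM in normal folds, 103, 118 and 109 CPM in untreated folds and 96.8, 64.8 and 127 CPM in SOT folds. It rose 1.71-fold in untreated folds (with a log2 fold change of 0.77, SE 0.22, adjusted p = 0.0279), and the call was lost without normal replicate 1 or 2 or untreated replicate 2 or 3 (adjusted p up to 0.0893). PSME1 stood at 115, 107 and 135 CPM in normal folds, 167, 167 and 167 CPM in untreated folds and 155, 124 and 274 CPM in SOT folds, and did not pass (log2 fold change 0.49, adjusted p = 0.183). Without SOT replicate 3 its adjusted p was 0.0189. PSME3 did not pass either (log2 fold change 0.25, adjusted p = 0.1).

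EMC9 fell. It encodes a subunit of the complex that inserts membrane proteins in the endoplasmic reticulum, and its place in the list comes from the annotation, which files it with PSME2. It stood at 48.3, 49.9 and 63.0 CPM in normal folds, 16.0, 9.0 and 12 CPM in untreated folds and 15.7, 9.01 and 20.7 CPM in SOT folds. Normal folds were 4.36-fold above untreated folds, with no overlap (log2 fold change -2.12, SE 0.32, adjusted p = 0.00262), and its row meets the PSME1 row on chromosome 17 by 4 bases on the other strand. EMC8, the paralogue in the same complex, stood between 22.5 and 30.5 CPM in all 9 libraries and did not pass.

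Among the class I-like proteins AZGP1, a secreted lipid-binding glycoprotein, stood at 18.4, 9.32 and 6.20 CPM in normal folds, 4.46, 0.934 and 2.35 CPM in untreated folds and 6.42, 2.00 and 1.91 CPM in SOT folds. It fell in untreated folds (with a log2 fold change of -2.13, SE 0.71, adjusted p = 0.0494), and the call was lost without SOT replicate 2, normal replicate 1 or 2, or untreated replicate 2 or 3 (adjusted p up to 0.156), and with no filter on low counts. FCGRT, the neonatal Fc receptor that recycles immunoglobulin G, was named after its values were seen and rose by 0.62 on the log2 scale (adjusted p = 0.0212). Its call was lost without normal replicate 1 or 3 or untreated replicate 2 or 3 (adjusted p up to 0.0817). HFE, which acts in iron sensing, did not pass (log2 fold change 0.27). HSPA4, a cytosolic heat shock protein, did not pass either (log2 fold change 0.04, adjusted p = 0.855).

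Levels of different members were set side by side on FPKM. In normal folds B2M was highest at 1063 ± 170 FPKM, followed by CD74 at 329 ± 92.5 (SD, n = 3). The class I rows RLA-A3 (254 ± 36.0 FPKM), LOC100328967 (248 ± 31.2 FPKM) and LOC100349085 (247 ± 34.8 FPKM) and RLA-DR-ALPHA (207 ± 43.7 FPKM) came next and did not differ beyond their spread. In untreated folds CD74 reached 1775 ± 401 FPKM, beside 2045 ± 225 for B2M, and RLA-DR-ALPHA 1299 ± 359 FPKM, above RLA-A3 at 402 ± 15.6 FPKM. RLA-DRB1, DQ alpha and DQ beta followed at 845 ± 357, 807 ± 214 and 771 ± 369 FPKM and could not be ordered within their spread. The 14 class II rows together took 0.0594% to 0.0951% of all counts in normal libraries, 0.363% to 0.736% in untreated libraries and 0.192% to 0.336% in SOT libraries.

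The MHC genes among the members lie mostly on chromosome 12, and most of the other members lie elsewhere. In the stretch from the first class I row to tapasin (20208160 to 23719766) 28 members were tested, of which 18 rose and none fell in untreated folds, with a median log2 fold change of 1.62. The 101 other tested rows of that stretch held 22 that rose and 16 that fell, with a median of 0.04. Over all tested genes 17.7% rose and 15.1% fell. Within the class II stretch (23070319 to 23561396), which also holds TAP1 and TAP2, 13 of 16 members rose with a median of 2.70, and 1 of the 3 other rows did. These are descriptions of position, and the class I row LOC100354611 lies apart on chromosome 11 (log2 fold change 0.16, adjusted p = 0.376).

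SOT folds were then compared with untreated injured folds, to ask how the hydrogel-treated injury differed from the untreated one. By edgeR's adjusted p no member passed, and 0.0115% of all tested genes did. At an unadjusted p under 0.05 there were 15 members lower and 4 higher in SOT folds, where 7.59% of all tested genes were lower and 5.06% higher, or 12.6% in either direction. The class II chains made up 9 of the 15. All 14 class II chains had a log2 fold change below 0, with a median of -1.15, while 48.4% of all tested genes lay below 0 with a median over all genes of 0.01.

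The class II chain with the smallest p was DQ alpha (LOC100343144), whose SOT libraries at 312, 299 and 375 CPM lay below all untreated libraries at 834 to 1458 CPM. Its log2 fold change was -1.83 (SE 0.27, 95% interval -2.46 to -1.21, adjusted p = 0.0749). DRB1-8-like (LOC100348904) followed at -1.20 (SE 0.19, interval -1.64 to -0.76, adjusted p = 0.083). RLA-DMB and RLA-DMA stood at -1.29 and -1.15 with an adjusted p of 0.137 each, and RLA-DR-ALPHA at -1.19 (interval -1.83 to -0.54, adjusted p = 0.183). These chains had no overlap between SOT and untreated libraries, though none of them passed. How many of all tested genes were likewise apart was not counted, so the lack of overlap adds nothing to the test. CD74 stood at -0.89 (interval -1.55 to -0.22, adjusted p = 0.287) and CIITA at -0.95 (interval -1.78 to -0.13, adjusted p = 0.332). DP beta, DO beta and LOC100349667 were nearest to 0, at -0.50, -0.34 and -0.10, and stood at -1.28, -1.66 and -0.79 without SOT replicate 3. DP alpha stood at -0.84, and at -1.37 without that library.

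Whether class II chains passed here changed with the tool and with SOT replicate 1. DESeq2, fitted to all 104 members, called 8 of them, 7 lower and 1 higher. It called 2.4% of the genes to which it gave an adjusted p lower and 1.25% higher (3.65% in either direction). The 7 were the class I row LOC100338822 (log2 fold change -1.51, adjusted p = 0.0143), DQ alpha LOC100343144 (-1.82, adjusted p = 3.54e-07), DRB1-8-like LOC100348904 (-1.19, adjusted p = 9.02e-06), DQ beta (-1.42, adjusted p = 0.0227), RLA-DMA (-1.14, adjusted p = 0.0018), RLA-DMB (-1.27, adjusted p = 0.000865) and RLA-DR-ALPHA (-1.17, adjusted p = 0.00722). The 1 higher was LOC103348990, a CD94 row (2.13, adjusted p = 0.0405). Without SOT replicate 1 edgeR called 2 members lower, DQ alpha (-1.77, adjusted p = 0.0475) and DRB1-8-like (-1.33, adjusted p = 0.0223), where 1.81% of all tested genes were lower and 2.24% were called in either direction. Without SOT replicate 3 no member passed, and RLA-DR-ALPHA stood at -1.40 and CIITA at -1.30 on the log2 scale.

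Marker lists differed in sign between SOT and untreated folds. All 10 macrophage and all 6 general leukocyte markers had a log2 fold change below 0 in SOT against untreated folds, with medians of -1.07 and -1.11. Over all tested genes 48.4% lay below 0 and 51.6% above. Of the dendritic cell markers 8 of 12 were below 0 with a median of -0.30, while all 11 T and NK cell markers and 8 of 9 B and plasma cell markers were above 0 with medians of 1.37 and 0.83. All 6 neutrophil markers were below 0 too, with a median of -1.58, and 1 of them had an unadjusted p under 0.05. So were 6 of 7 endothelial and 5 of 6 fibroblast markers, with medians of -0.31 and -0.44. Skeletal muscle markers were above 0 in 4 of 5, and epithelial markers were split at 2 and 2. Summed T and NK cell markers were 36.2, 32.1 and 143 CPM in SOT replicates 1, 2 and 3, beside 22.7 to 35.8 CPM in untreated folds. Only SOT replicate 3 stood well above the untreated libraries. Summed B and plasma cell markers were 909, 276 and 1565 CPM, beside 351 to 752 CPM, with SOT replicate 2 below every untreated library. None of the 16 macrophage and general leukocyte markers passed by edgeR's adjusted p, and 9 and 6 of them had an unadjusted p under 0.05. At that unadjusted p 7.59% of all tested genes were lower, and 12.6% differed in either direction. SOT replicate 1 had the highest summed leukocyte markers among SOT folds. Without it 6 of the macrophage, 4 of the general leukocyte and 3 of the neutrophil markers fell, where 1.81% of all tested genes fell. RLA-DR-ALPHA per PTPRC was 31.0 ± 13.6 in SOT folds and 28.5 ± 1.99 in untreated folds (SD, n = 3, two-sided exact permutation p = 1). CIITA per PTPRC was 0.249 ± 0.0966 and 0.203 ± 0.0323 (SD, n = 3, exact permutation p = 0.6). The part of leukocyte content in the class II values was not tested.

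**Figure D3:**
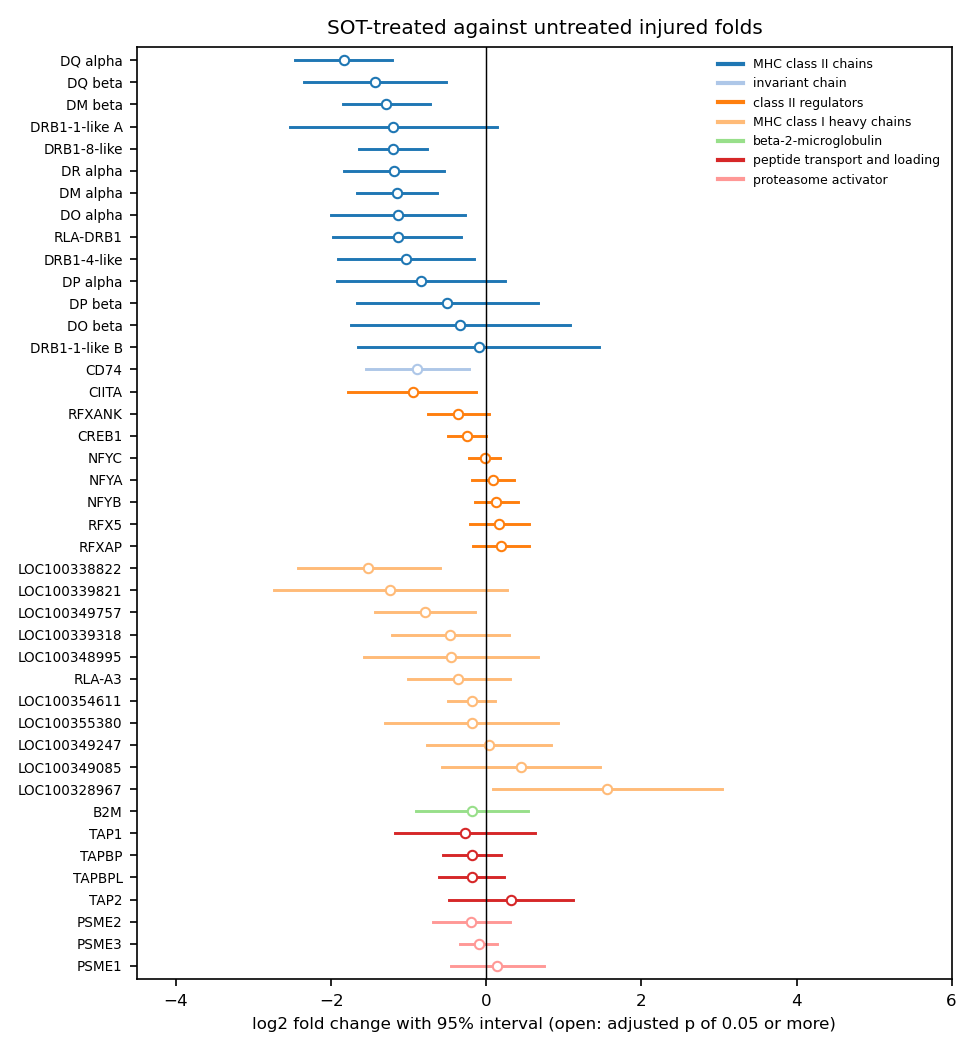
Log2 fold change (x axis) of SOT against untreated folds with 95% intervals from edgeR for the class II and class I genes and their helpers (y axis), grouped by role. All points are open, because no adjusted p was under 0.05, and the 14 class II chains lie between -1.83 and -0.10 while the class I heavy chains run from -1.52 to 1.56.

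The class I heavy chains did not move together in SOT folds. The highest value, a log2 fold change of 1.56 (SE 0.65, interval 0.09 to 3.04, adjusted p = 0.374), belonged to LOC100328967, an RLA class I row on chromosome 12 at 20281008 to 20284364 that was singled out after its values were seen. It stood at 426, 482 and 372 CPM in normal folds, 534, 764 and 587 CPM in untreated folds and 472, 1107 and 3986 CPM in SOT folds. SOT replicate 3 was above every other library, and without it the log2 fold change was 0.37. LOC100328967 took 22.5% to 27.9% of the summed class I CPM in the normal and untreated libraries and in SOT replicate 1, but 54.4% in SOT replicate 2 and 60.9% in SOT replicate 3. The summed class I rows stood at 2009, 2036 and 6549 CPM in SOT folds, against 2373 to 2742 CPM in untreated folds and 1461 to 1886 CPM in normal folds. Without LOC100328967 and LOC100349085, the other row that was high in SOT replicate 3, they stood at 1215, 595 and 1436 CPM in SOT folds and 1406 to 1521 CPM in untreated folds. How reads shared by near-identical class I rows were assigned is not given in the sources used here, so the values of single class I rows are uncertain.

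**Figure D4:**
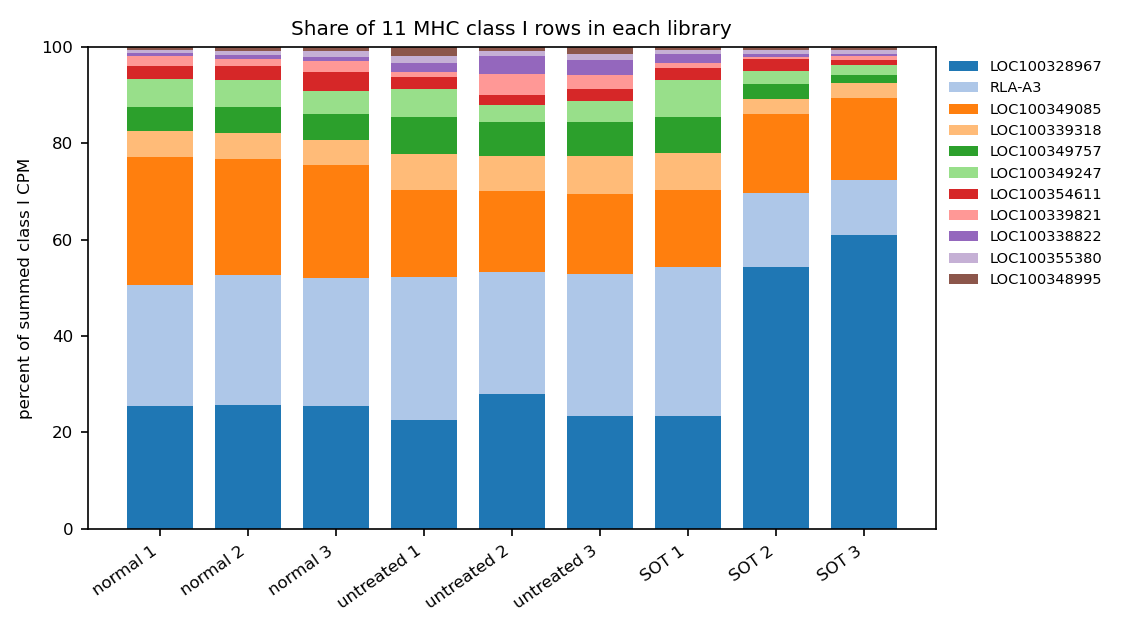
Percent of the summed class I CPM (y axis) taken by each of the 11 class I heavy chain rows in each of the 9 libraries (x axis), as stacked bars. The bottom segment, LOC100328967, takes 22.5% to 27.9% in 7 libraries and 54.4% and 60.9% in SOT replicates 2 and 3.

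B2M, TAP1, TAP2, TAPBP, PSME1 and PSME2 differed in sign in SOT against untreated folds. Their log2 fold changes lay between -0.27 and 0.32, and no adjusted p was below 0.668. The interval was -0.90 to 0.54 for B2M, -1.18 to 0.63 for TAP1 and -0.56 to 0.19 for TAPBP, so changes within those bounds could not be seen with 3 libraries a group. Without SOT replicate 3 the log2 fold change was -0.54 for B2M, -0.82 for TAP1, -0.22 for TAP2, -0.32 for TAPBP, -0.23 for PSME1 and -0.41 for PSME2. In these genes SOT replicate 2 was the lowest and SOT replicate 3 the highest of the SOT libraries.

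SOT folds also differed from normal folds. Of the 61 tested members 16 rose, where 9.01% of all tested genes rose, and EMC9 alone fell, where 7.67% fell (16.7% in either direction). DESeq2, fitted to all 104 members, called 23 of them, 20 higher and 3 lower. It called 25.5% of the genes to which it gave an adjusted p, 13.1% higher and 12.4% lower. The normal libraries serve this comparison and that of untreated folds. Class II chains made up 9 of the 16, with a median log2 fold change of 1.58 over all 14. RLA-DR-ALPHA stood 2.82-fold above normal folds (log2 fold change 1.5, SE 0.29, adjusted p = 0.013), DQ alpha LOC100343144 3.41-fold (1.77, SE 0.27, adjusted p = 0.00758) and RLA-DMB 3.56-fold (1.83, SE 0.25, adjusted p = 0.0056). CD74 stood 2.99-fold (1.58, SE 0.29, adjusted p = 0.0122) and CIITA 3.16-fold above (1.66, SE 0.37, adjusted p = 0.0211).

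Outside the class II chains the genes that rose in SOT against normal folds were CD74, CIITA, RFX5 (log2 fold change 0.61, adjusted p = 0.0402), NFYA (0.50, adjusted p = 0.0261), TAP2 (1.28, adjusted p = 0.0419), TAPBP (0.82, adjusted p = 0.0152) and the NK receptor row LOC103345395. No class I heavy chain passed, but 1 did without SOT replicate 1 and 2 without SOT replicate 2. B2M, with a log2 fold change of 0.80 (adjusted p = 0.117), also rose without SOT replicate 2. EMC9 stood at -1.83 (SE 0.32, adjusted p = 0.0104). The count that rose was 5 without normal replicate 1, 8 without normal replicate 2 and 10 without normal replicate 3, and 14 without SOT replicate 3. For class II chains it was 4 without normal replicate 1, 6 without normal replicate 2 and 5 without normal replicate 3. RFX5 lost its call without any 1 library other than SOT replicate 1 (adjusted p up to 0.122), NFYA without SOT replicate 2, any 1 normal replicate or untreated replicate 3 (up to 0.0785), and CIITA and LOC103345395 without normal replicate 1 or 2 (up to 0.0751 and 0.0605). The calls of CD74, DQ alpha, DRB1-8-like, RLA-DMA, RLA-DMB and EMC9 held in all 9 fits, with an adjusted p of up to 0.0464 in CD74, while TAP2 lost its call without any 1 of the normal or untreated replicates (up to 0.13) and TAPBP and RLA-DR-ALPHA without normal replicate 1 (0.0602 and 0.0518). Without SOT replicate 3 the log2 fold change of TAP2 was 0.73 (adjusted p = 0.0286). With only the SOT and normal libraries in the fit, LOC100349408, DO alpha, NFYA, RFX5 and TAP2 lost their calls, as did RFX5 with upper-quartile scaling and LOC103345395 by limma. In that fit of 2 groups LOC103345395 did not pass the filter on low counts.

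The receiving side of presentation, the receptors of T and NK cells, had few counts in most rows. T cell receptors are assembled from gene segments, and 42 of the 46 segment rows did not pass the filter on low counts. Rows with at least 1 count numbered 23, 15 and 20 in normal replicates 1, 2 and 3, 13, 13 and 10 in untreated folds and 19, 19 and 33 in SOT folds. Without the 3 rows that hold constant regions, their summed counts were 131, 67 and 87 in normal folds, 50, 74 and 43 in untreated folds and 78, 83 and 496 in SOT folds. SOT replicate 3 was thus apart from its own group, and no tested segment passed in any comparison of the 9 libraries.

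The alpha constant row, LOC103351170 on chromosome 17, stood at 7.72, 6.77 and 7.49 CPM in normal folds, 2.91, 5.56 and 3.85 CPM in untreated folds and 5.42, 5.08 and 25.7 CPM in SOT folds. The beta constant row, LOC103345242, stood at 7.22, 5.32 and 5.18 CPM, 3.47, 5.45 and 4.63 CPM, and 5.11, 5.10 and 30.6 CPM in the same order. Both rows were named after their values were seen. In SOT against untreated folds the log2 fold change was 1.55 for the alpha row (adjusted p = 0.345) and 1.59 for the beta row (adjusted p = 0.379), and 0.39 and 0.22 without SOT replicate 3. In untreated against normal folds the alpha row stood at -0.84 (adjusted p = 0.316), and it fell with an adjusted p of 0.0361 when SOT replicate 3 was left out of the fit. The beta constant row overlaps the VDJC2 row LOC103345244 by 7170 bases on the same strand, so these rows can share reads.

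CD8B, the beta chain of the CD8 co-receptor, ranged from 0.218 to 1.3 CPM in normal and untreated folds and reached 2.62 CPM in SOT replicate 3, with no comparison passing. IFNG, the T and NK cell cytokine that induces CIITA and much of the class I pathway, stood at 0.300, 0.264 and 0.131 CPM in normal folds, 0.293, 0.658 and 0.691 CPM in untreated folds and 0.102, 0.0561 and 1.02 CPM in SOT folds. The IFNG values rest on 3 to 55 counts per library and did not pass (log2 fold change 1.23, SE 1.03, adjusted p = 0.388 in untreated against normal folds). In SOT against normal folds IFNG stood at 0.76, and at -1.49 without SOT replicate 3.

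**Figure D5:**
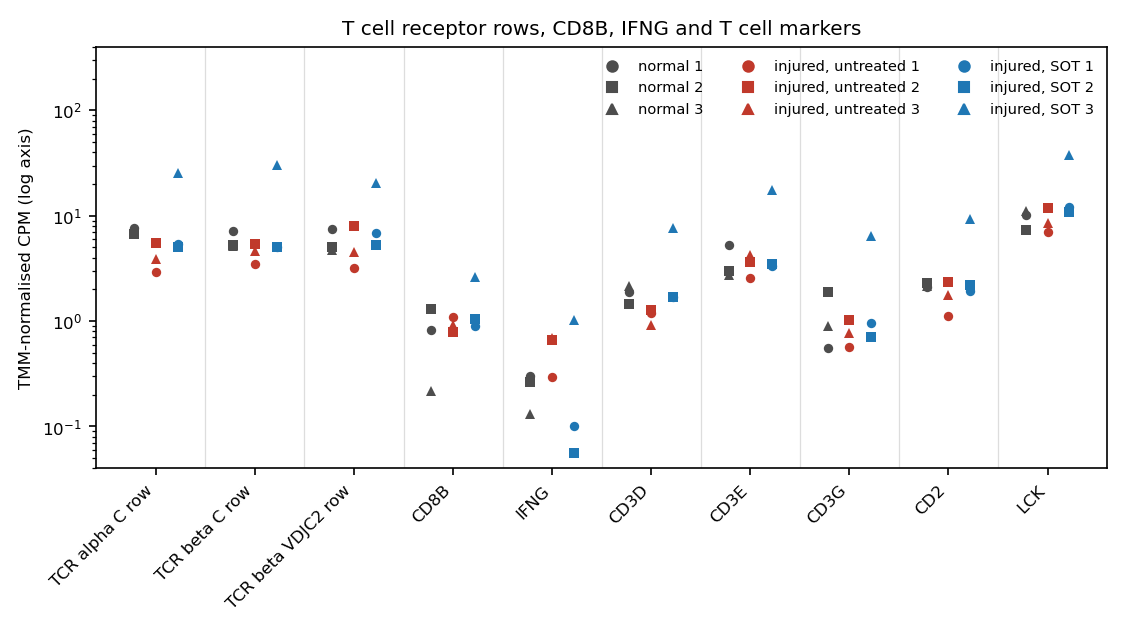
TMM-normalised CPM (y axis, log scale) of 3 T cell receptor rows, CD8B, IFNG and 5 T cell markers (x axis) in each library, coloured by group, with symbols for the replicate number. SOT replicate 3 is the highest library in every column, for example at 25.7 CPM in the alpha constant row where SOT replicates 1 and 2 stand at 5.42 and 5.08 CPM.

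Of the 7 NK receptor rows 6 were tested and 1 rose in untreated folds, where 17.7% of all tested genes rose. LOC103345395, described as a killer cell lectin-like receptor, was at 0 in all 3 normal libraries and stood at 0.481, 2.46 and 1.44 CPM in untreated folds and 0.715, 0.150 and 0.353 CPM in SOT folds (adjusted p = 0.00544 in untreated and 0.0232 in SOT against normal folds). Against the floor of 3 counts in the normal library where it is highest, the mean was at least 21.1-fold higher in untreated folds and at least 5.87-fold higher in SOT folds. LOC103345395 passed the filter on low counts through its untreated libraries, so its calls are not independent of that filter. With only the SOT and normal libraries in the fit it did not pass the filter and was not tested. A second row of that description, LOC100351298, chosen after its values were seen, stood at 0, 6.80 and 1.31 CPM in normal folds, 42.4, 37.2 and 39.5 CPM in untreated folds and 40.8, 8.13 and 7.15 CPM in SOT folds. SOT replicate 1 was at the untreated level and the other SOT libraries were near the normal one, and it did not pass (log2 fold change 3.87, SE 1.32, adjusted p = 0.0531 in untreated against normal folds). The NKG2-A and CD94 rows stood below 3 CPM in every library, and none of them passed. Without SOT replicate 1, 2 NK rows rose in untreated folds, where 5876 of 17709 tested genes were called in either direction. Without normal replicate 2, 3 did, where 4082 of 17674 tested genes were called.

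Genes outside the 104 were read from lists by role, with up to 4 genes of each named. The lists were not limited to rows of the KEGG pathway. For all of these lists the shares over all tested genes were 17.7% that rose and 15.1% that fell in untreated against normal folds. In SOT against normal folds 9.01% rose. All 3 proteases that cut antigen and CD74 for class II rose in untreated folds: CTSS, cathepsin S, from 60.0 ± 10.5 to 412 ± 42.1 CPM (log2 fold change 2.78, adjusted p = 0.000219), CTSB, cathepsin B, from 496 ± 64.9 to 2038 ± 150 CPM (2.04, adjusted p = 0.000921) and LGMN, legumain, from 211 ± 41.9 to 536 ± 24.6 CPM (1.34, adjusted p = 0.00272). In SOT folds CTSS stood at 225 ± 46.3 CPM (log2 fold change -0.88 against untreated folds, adjusted p = 0.16). MARCH1, the ligase that removes class II from the surface, rose from 7.12 ± 0.671 to 48.3 ± 7.51 CPM (2.76, adjusted p = 0.000197) and stood at 24 ± 4.03 CPM in SOT folds (values as mean ± SD, n = 3). The other ligase measured did not pass.

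Of the 15 interferon gamma signalling and target genes 11 rose and none fell in untreated folds, and 13 rose in SOT against normal folds. IDO1, which degrades tryptophan, stood at 44.0, 49.0 and 41.2 CPM in normal folds, 1112, 1261 and 1286 CPM in untreated folds and 762, 139 and 132 CPM in SOT folds (log2 fold change 4.77, adjusted p = 0.00238 in untreated against normal folds). BATF2, IRF1 and the receptor chain IFNGR1 rose with log2 fold changes of 3.42, 2.16 and 2.05. The count of 13 was 0 without normal replicate 1, 1 without normal replicate 2, 3 without normal replicate 3, 6 without SOT replicate 1 and 8, 5 and 4 without untreated replicates 1, 2 and 3. Without SOT replicate 1, 2 of these genes fell in SOT against untreated folds, where 1.81% of all tested genes fell.

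Of 8 co-stimulation genes 5 rose in untreated folds, among them CD274 (PD-L1) from 8.83 ± 1.58 to 106 ± 26.6 CPM (log2 fold change 3.58, adjusted p = 0.00174), CD80 from 8.99 ± 2.40 to 43.1 ± 4.62 CPM (2.26, adjusted p = 0.000806), CD86 from 2.40 ± 1.07 to 13.4 ± 1.51 CPM (2.48, adjusted p = 0.00153) and CD40 from 8.84 ± 2.00 to 25.6 ± 4.02 CPM (1.54, adjusted p = 0.00123; SD, n = 3). The CD80 and CD86 proteins give T cells the second signal that accompanies class II. None of the 8 passed in SOT against untreated folds, and 2 fell there without SOT replicate 1, where 1.81% of all tested genes fell. The immunoproteasome subunits that cut class I peptides did not pass in untreated folds: PSMB10 stood at 1.05 (adjusted p = 0.0548) and PSMB8 at 1.01 (adjusted p = 0.055) on the log2 scale. All 3 of its subunits rose without SOT replicate 3 and 2 without SOT replicate 2. None of the 9 constitutive proteasome subunits passed, with PSMA6 (0.37) and PSMA4 (0.23) at the smallest p, and 1 rose without SOT replicate 3.

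The other lists are also given beside 17.7% of all tested genes that rose and 15.1% that fell. Of these lists, 1 of 4 tested genes of peptide trimming and loading rose (PDIA3, log2 fold change 0.57, adjusted p = 0.0235). This was a count of 0 without normal replicate 2 or 3 or untreated replicate 2 or 3 and of 2 without SOT replicate 3. Among the heat shock proteins 1 of 6 rose (HSPA6, 1.42, adjusted p = 0.0147), which was lost without untreated replicate 3. Among the lipid-presenting genes 1 of 4 rose (CD1C, 2.14, adjusted p = 0.00185), and 2 did without SOT replicate 1. TNF rose (5.35, adjusted p = 0.0233) and CD8A fell (-1.89, adjusted p = 0.0386) in untreated folds, and CD4 did not pass. The call of TNF was lost without any 1 of the normal replicates or untreated replicate 3, and that of CD8A without normal replicate 1 or 2 or any 1 of the untreated replicates. Over the 27 pathway rows outside the choice, 23 were tested, of which 7 rose and 4 fell in untreated folds. The 7 became 4 without untreated replicate 3, and the 4 became 0 without normal replicate 1 or untreated replicate 3, 2 without normal replicate 2 and 1 without untreated replicate 1.

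Markers of the other cell types in the tissue were read in the same way. In untreated against normal folds 17.7% of all tested genes rose and 15.1% fell. Beside these shares, 5 of 6 neutrophil markers, 3 of 7 endothelial markers, 1 of 4 epithelial markers and 3 of 6 fibroblast markers rose. Of the skeletal muscle markers 3 of 5 fell, as did 1 fibroblast marker. Of the T and NK cell markers none of 11 rose and CD8A fell, and of the 9 B and plasma cell markers CD22 rose and JCHAIN fell. Summed B and plasma cell markers lay between 844 and 3065 CPM in normal folds, 351 and 752 CPM in untreated folds and 276 and 1565 CPM in SOT folds. Summed T and NK cell markers lay between 31.5 and 39.4, 22.7 and 35.8, and 32.1 and 143 CPM in the same order, and KLRB1 was listed at 0 in 5 libraries. The fall of CD8A was lost without normal replicate 1 or 2 or any 1 untreated replicate, and that of the fibroblast marker without the same libraries. The B and plasma cell count that fell was 0 without SOT replicate 1, normal replicate 1 or 2 or any 1 untreated replicate, and 2 without SOT replicate 2 or 3 or normal replicate 3. The muscle count was 1 without any 1 normal replicate or untreated replicate 2 and 0 without untreated replicate 3.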

How the data were processed

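RNA-seq gene counts and FPKM of 9 rabbit vocal fold libraries were deposited by the authors as whole-number read counts and as FPKM, which divides by gene length and depth. Per the submitters' processing notes, cutadapt 1.9, HISAT2 2.0.4, StringTie 1.3.4d and edgeR were used with the build OryCun2.0. The sources used here do not give their settings, the strandedness or the treatment of reads that map to several places.

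Groups were read from the labels. From the counts, edgeR 4.0.16 in R 4.3.3 was run with TMM scaling, its default filter on low counts, 1 mean per group over all 9 libraries, the quasi-likelihood test and Benjamini-Hochberg adjustment over 17344 genes at 0.05. The steps were tested on simulated counts. Levels are TMM-normalised CPM, and levels of single genes were set side by side on FPKM. Shares within the class I and DR beta rows and sums over gene lists were taken on CPM, which does not divide by gene length. Intervals are 95% and cover the spread between libraries. The log2 fold changes are edgeR's.

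Alternatives were other scalings, no filter, DESeq2 1.42.0, limma 3.58.1 on log2(FPKM + 0.1) and log2(FPKM + 1), fits of 2 groups only, a replicate block, near-identical MHC rows summed, and leaving out each library.

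The members and gene lists were chosen with earlier results of these data known. Per-library values are given for 30 members: those that passed in any comparison, up to the 24 with the largest absolute log2 fold change in untreated against normal folds, and a fixed set of key genes. Up to 4 genes are named per companion list, by the largest absolute log2 fold change among those that passed, and a list without a pass is shown by the 2 genes of smallest p. Other names were chosen after their values were seen. A search of promoters for motifs was not run, and no sequence is printed, because no sequences were used here.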

Additional observations from a re-analysis of the deposited data

How the results depend on the processing

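Without 1 library, the members called in untreated against normal folds numbered 17 to 35 (16 to 32 higher and 1 to 3 lower), in SOT against untreated folds 0 to 2 (0 higher and 0 to 2 lower), and in SOT against normal folds 6 to 21 (5 to 20 higher and 1 lower). In untreated against normal folds the number lower was 1 with no filter on low counts and 4 with upper-quartile scaling. DESeq2 called 8 members in SOT against untreated folds (1 higher and 7 lower) and 3 lower in SOT against normal folds. With only the 2 groups compared in the fit, SOT against normal folds had 11 members called, 10 of them higher. With a replicate block the counts were 27 in untreated against normal, 0 in SOT against untreated and 16 in SOT against normal folds, with 2 lower in the last. Under the block B2M and LOC100339318 lost their calls in untreated against normal folds, and RFX5 and LOC103345395 in SOT against normal folds. The labels give libraries of the same number nothing else in common. Their deviations from the group means correlated between -0.048 and 0.267, and those of libraries with different numbers between -0.276 and 0.174. Such correlations cannot tell whether libraries of the same number share an animal or a batch. The cause of the changes in the counts was not tested.

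Some log2 fold changes with no call changed sign. In SOT against untreated folds, without 1 library, AZGP1 ran from -0.37 to 1.07, B2M from -0.54 to 0.11, IFNG from -2.72 to 0.05, LOC103345076 from -0.89 to 0.37, PSME1 from -0.23 to 0.37, PSME2 from -0.41 to 0.04, TAP1 from -0.82 to 0.10 and TAP2 from -0.22 to 0.62. The sign changed without SOT replicate 1 (AZGP1), SOT replicate 2 (B2M, IFNG, PSME2 and TAP1), SOT replicate 3 (LOC103345076, PSME1 and TAP2) or untreated replicate 1 (LOC103345076, -0.09). LOC103345076 was also -0.13 and -0.11 by limma with 0.1 and 1 added and -0.17 with the replicate block. In SOT against normal folds IFNG was -0.02 with the replicate block and ran from -1.49 to 1.28 without 1 library, LOC100349757 ran from -0.02 to 0.59, and NFYB was 0.02 by limma with either addition and 0.04 without SOT replicate 1. Upper-quartile scaling moved the median of all genes to -0.11 in untreated against normal folds, and limma on log2(FPKM + 0.1) to 0.13 and 0.12 in SOT against untreated and normal folds. Rows with few counts, such as IFNG and the T cell receptor segments, limit what can be seen.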
